A study of Mus musculus with 22 samples.

Results

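Expression of 10 genes that carry the vasopressin signal from the cell surface to cyclic AMP, or that switch it off, was described in a mouse collecting duct cell line. The genes were taken by name from a fixed list, which was drawn up with earlier results of these data known, and all 10 were found among the 54514 named entries of the expression table. They are the vasopressin receptors Avpr2 and Avpr1a, the G protein subunit Gnas, the adenylyl cyclases Adcy3, Adcy4, Adcy6, Adcy7 and Adcy9, and the beta-arrestins Arrb1 and Arrb2.

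In the principal cells of the collecting duct, vasopressin binds the V2 receptor, which activates the stimulatory G protein Gs. Its alpha subunit then turns on adenylyl cyclase, an enzyme that makes cyclic AMP, and this signal raises the amount and surface delivery of the water channel aquaporin-2 (Aqp2). Beta-arrestins bind receptors that have been phosphorylated by receptor kinases, uncouple them from the G protein and lead them into endocytosis.

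All samples were mpkCCD cells, an immortalised line from the mouse cortical collecting duct (secondary clone 38 of mpkCCDc11), grown on permeable supports in medium that contained dexamethasone. Unsorted wild-type (WT) cells were either left without dDAVP (vehicle, 3 libraries) or given dDAVP, also known as desmopressin, a selective V2 receptor agonist (3 libraries). Cells of the GFP reporter lines (C1, C11, C43 and C50) were all treated with dDAVP and sorted by GFP, giving a negative and a positive fraction with 2 libraries for each line. This gave 22 libraries in 10 groups. Each reporter line is labelled as 1 clone, no reporter cells without dDAVP are among the samples, and the labels do not name the promoter that drives GFP. The protocols name dDAVP at 0.1 or 1 nM for 24 or 48 hours without tying a dose or a time to a library. Nothing in the labels says that the libraries of a group came from separate cultures, so p-values measure only the spread between these samples, which may be technical.

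Values are TPM (RNA-seq transcript abundance), which is counted per transcript length and scaled to the same total in each library. The sequencing depth is therefore unknown, and from 12293 to 14341 entries per library reached 1 TPM. The libraries fell into a set of 10 with 17206 to 20288 genes above 0 TPM and a set of 12 with 23174 to 31393, and both sets held libraries of WT vehicle, WT dDAVP, GFP-negative and GFP-positive cells. GFP stood at 5.31 to 17.57 TPM in the GFP-negative and at 1064.51 to 1566.94 TPM in the GFP-positive libraries. Principal cell markers, among them Aqp2 and Avpr2 itself, summed to between 656 and 10827 TPM, while fibroblast markers summed to at most 1.31 TPM and endothelial markers to at most 1.29 TPM. Markers of dividing cells summed to 793 to 856 TPM in WT vehicle, 461 to 643 in WT dDAVP, 580 to 1022 in GFP-negative and 238 to 450 in GFP-positive libraries. Their part in the differences reported here was not tested.

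The set of genes was carried by a few abundant members. Gnas, which encodes the alpha subunit of Gs, was present at 555 to 804 TPM across the 22 libraries. The V2 receptor gene Avpr2 followed with 137 to 385 TPM. Adcy6 was the only adenylyl cyclase gene with a mean above 1 TPM over all libraries, at 13.4 to 33.8 TPM, and Arrb2 was present at 8.57 to 31.4 TPM. These levels are per transcript length, so the order of the 4 genes can be read within a library, and in every group the mean of Gnas was highest and that of Avpr2 next. The remaining 6 members were near the floor of the table. Adcy9 ranged from 0.20 to 1.02 TPM, Adcy3 from 0.04 to 1.38, Arrb1 from 0 to 0.81, Adcy7 from 0 to 1.06, Adcy4 from 0 to 0.96 and Avpr1a from 0 to 0.13. The highest group mean among them was 1.13 TPM, of Adcy3 in C11 GFP-positive cells. Their means over the libraries of each comparison stayed under the 1 TPM needed for testing, so no change is reported for them.

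**Figure D1:**
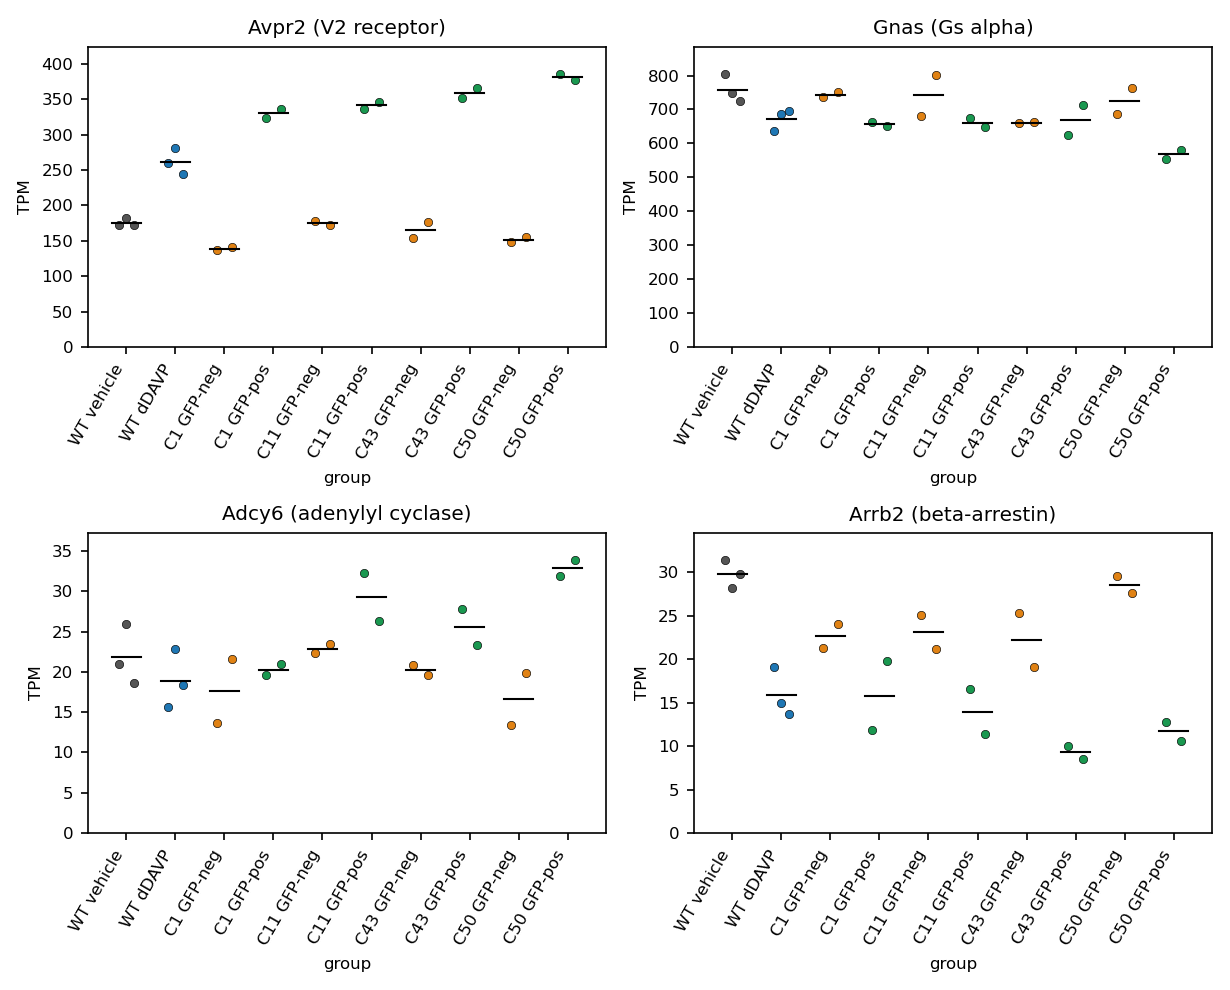
TPM of the 4 abundant genes (linear axes from 0) in each library, by group; points are libraries and bars are group means (n = 3 for WT groups, n = 2 for the others). Avpr2 lay between 324 and 385 TPM in all GFP-positive libraries, above every other library, while Arrb2 was lower in the GFP-positive than in the GFP-negative libraries of each clone.

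Avpr2 (ENSMUSG00000031390) is X-linked. RefSeq places the 250 bases upstream of its start at chrX:73891852-73892101 on the + strand of GRCm38.p6. They are shown because, of the 4 members tested, Avpr2 had the largest rise in both main comparisons. Capitals mark the ETS core GGAA on either strand.
Avpr2 promoter: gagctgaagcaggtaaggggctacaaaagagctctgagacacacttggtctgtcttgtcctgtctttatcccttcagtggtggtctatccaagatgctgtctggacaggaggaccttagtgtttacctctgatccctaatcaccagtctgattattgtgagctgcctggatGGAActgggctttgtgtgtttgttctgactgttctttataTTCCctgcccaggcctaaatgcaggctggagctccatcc
The window held 2 matches to GGAA, a motif so short that 93.4% of the 32851 RefSeq promoter windows of the same length held at least 1. On either strand it held 0 matches to the cyclic AMP response element TGACGTCA (present in 1.55% of windows), 0 to its partial site TGACG, which the full element contains (17.8%), 0 to the AP-1 motif TGANTCA (6.75%) and 0 to the GATA motif AGATAA (9.99%). A missing match says only that these letters are not in this window. RefSeq promoter windows were matched for 7 of the 10 members.

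A neighbouring gene bears on how the Avpr2 values can be read. In the GENCODE M21 annotation of GRCm38, Arhgap4 runs on the opposite strand and shares 2347 of the 2886 exonic bases of Avpr2 (81.3%). Those shared bases are 29.0% of the exonic bases of Arhgap4, and 12 of its 20 annotated transcripts reach into Avpr2. The library kit does not mark strand, so reads from the 2 genes in the shared bases cannot be told apart. L1cam, the neighbouring gene that also runs on the opposite strand, shares 0 exonic bases with Avpr2. Among the other abundant members, Gnas shares 988 exonic bases (8.83%) with the antisense gene Nespas and 1469 (13.1%) with Gm20721, and Adcy6 shares 605 (8.92%) with Gm29331.

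Avpr2 was higher in WT cells given dDAVP. Without dDAVP its 3 libraries read 172, 183 and 172 TPM. With dDAVP they read 260, 282 and 244 TPM. All 3 treated libraries lay above all 3 untreated ones, as did those of 7.12% of the 13494 genes tested. The mean rose from 176 ± 6.14 to 262 ± 19.1 TPM (SD, n = 3 each), a change of 0.57 ± 0.08 (SE) on the log2(TPM + 1) scale or 1.49-fold (limma, adjusted p = 0.00722). The 95% interval was 0.39 to 0.75 on the log2 scale. The median change of all genes tested was -0.16, so relative to that median Avpr2 rose by 0.73, and 578 of the 13494 genes had a larger rise. Over the same libraries Aqp2 went from 69.1 ± 5.43 to 2868 ± 139 TPM, and 7 of the 8 dividing-cell markers were called lower (median change -0.66), against 3 after median-ratio scaling and 4 after quantile normalization. Leaving out 1 library left 1 to 7 of them called, with 1 on leaving out the third untreated library. Of the 10 principal cell markers tested, 3 were called higher, Avpr2 and Aqp2 among them, and 2 lower (median log2 change -0.04). The lower ones were the sodium channel subunit genes Scnn1a (-0.60, limma adjusted p = 0.0435) and Scnn1g (-0.75, limma adjusted p = 0.0295), of which Scnn1a lost its call under both other scalings and Scnn1g under quantile normalization. Limma called 0 of the 3 markers of intercalated, proximal tubule and leukocyte cells that were tested. The part of these markers in the Avpr2 difference was not tested. Arhgap4 read 7.46 to 8.29 TPM without and 8.63 to 11.14 TPM with dDAVP (log2 difference 0.24, limma adjusted p = 0.243).

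Arrb2, the beta-arrestin gene that dominates in these cells, was lower with dDAVP. Its untreated libraries read 31.4, 28.1 and 29.8 TPM. Its treated libraries read 19, 14.9 and 13.7 TPM. The groups did not overlap, but treated libraries lay wholly below untreated ones for 28.7% of all genes tested. Arrb2 fell by 0.88 ± 0.13 (SE) on the log2 scale, from 29.8 ± 1.61 to 15.9 ± 2.82 TPM (SD, n = 3 each; limma, adjusted p = 0.0109), and relative to the median of all genes it was still lower. Leaving out the third untreated library moved the adjusted p to 0.0509 (limma). In both detection sets the treated libraries had less Arrb2 and more Avpr2: the log2 differences were -1.01 and 0.56 in the 2 libraries per group with more genes detected, and -0.62 and 0.59 in the single library per group with fewer. The tests within the larger set did not pass (limma, adjusted p = 0.0591 for Arrb2 and 0.12 for Avpr2).

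Gnas and Adcy6 did not pass the test in this comparison. Gnas read 804, 748 and 725 TPM without dDAVP. It read 638, 687 and 695 TPM with it. The treated libraries were all below the untreated ones, as for 28.7% of genes. The log2 difference was -0.17 (95% interval -0.33 to -0.01, limma adjusted p = 0.142), which is close to the median of all genes and became 4.4e-05 once libraries were scaled by their median ratios. Gnas passed once the count of genes detected in each library entered the fit (-0.20, limma adjusted p = 0.0452). Adcy6 read 21, 26.0 and 18.6 TPM without and 15.6, 22.8 and 18.4 TPM with dDAVP, and the groups overlapped. Its log2 difference was -0.20 (95% interval -0.60 to 0.20, limma adjusted p = 0.44), and ran from -0.34 to -0.07 on leaving out 1 library. In all, 2 of the 4 members tested were called, against a background of 8.88% of all genes (2.37% higher and 6.51% lower). Their median log2 change was -0.19 beside -0.16 for all genes. The split of the genome-wide calls depends on scaling, since 26.7% of calls were higher with the deposited TPM, 63.8% after median-ratio scaling and 53.9% after quantile normalization, while Avpr2 stayed a rise and Arrb2 a fall under all 3.

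Sorting the reporter clones by GFP separated cells with more from cells with less Avpr2. In GFP-negative libraries Avpr2 read 137 and 141 TPM in C1, 179 and 173 in C11, 154 and 177 in C43, and 148 and 155 in C50. In GFP-positive libraries it read 324 and 336 TPM in C1, 336 and 346 in C11, 352 and 366 in C43, and 385 and 377 in C50. Every GFP-positive library exceeded every GFP-negative one, a pattern found for 1.26% of the 13113 genes tested. The mean was 158 ± 16.2 TPM in the 8 GFP-negative and 353 ± 21.6 TPM in the 8 GFP-positive libraries (SD). The difference within clones was 1.16 ± 0.06 (SE) on the log2 scale or 2.23-fold (limma, adjusted p = 5.03e-09), with a 95% interval of 1.04 to 1.28. Of the 13113 genes, 74 had a larger rise. By clone the log2 difference of Avpr2 was 1.24 (C1), 0.95 (C11), 1.12 (C43) and 1.33 (C50), and all 4 passed the threshold (limma, adjusted p between 2.23e-06 and 6.59e-05). Positive libraries exceeded negative ones within each of the 4 clones for 6.72% of genes. Whether the difference varied between clones was tested as an interaction, which did not pass for Avpr2 (limma, adjusted p = 0.388).

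The overlapping gene moved with Avpr2 here. Arhgap4 ranged from 4.58 to 6.62 TPM in GFP-negative and from 10.8 to 15.5 TPM in GFP-positive libraries, a log2 difference of 1.01 (limma, adjusted p = 1.76e-06). Its level per transcript length was a small fraction of that of Avpr2 in every group. That level itself depends on how reads in the shared bases were assigned. L1cam, which shares no exon with Avpr2, differed by 0.42 (limma, adjusted p = 0.134). How far each of the overlapping genes accounts for the reads in the shared bases was not tested.

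Arrb2 went the other way in every clone. GFP-negative libraries read 21.3 and 24.1 TPM in C1, 25.1 and 21.2 in C11, 25.3 and 19.1 in C43, and 29.6 and 27.6 in C50. GFP-positive libraries read 11.8 and 19.7 TPM in C1, 16.5 and 11.4 in C11, 10.0 and 8.57 in C43, and 12.8 and 10.6 in C50. Within each clone both positive libraries were below both negative ones, as for 12.2% of all genes; across clones the fractions overlapped, because the higher C1 positive library exceeded the lowest negative one from C43. Arrb2 fell by 0.91 ± 0.13 (SE) on the log2 scale, from 24.1 ± 3.51 to 12.7 ± 3.69 TPM (SD, n = 8 each; limma, adjusted p = 0.000121). Its log2 differences by clone were -0.54 (C1), -0.71 (C11), -1.16 (C43) and -1.23 (C50). Tested clone by clone, C43 (adjusted p = 0.00818) and C50 (adjusted p = 0.00419) passed while C1 (adjusted p = 0.256) and C11 (adjusted p = 0.115) did not (limma). That does not show a difference between clones, since the interaction for Arrb2 had an adjusted p of 0.533 (limma). All 8 dividing-cell markers were called lower in the GFP-positive cells over the clones together (median log2 change -1.22). By clone, 1 was called lower in C1 (median -0.43), 7 in C11 (-1.11), and 8 in C43 (-1.59) and in C50. In the interaction with clone, Cdk1 (adjusted p = 0.00309) and Aurkb (adjusted p = 0.00332) passed (limma). The part of these markers in the Arrb2 difference was not tested. Markers of kidney cell types moved as well: 7 of the 10 principal cell markers tested, Avpr2 included, were called higher and 1 lower (median log2 change 0.81). Of 2 intercalated cell markers tested 1 was called higher (median 0.60), and so was the 1 proximal tubule marker tested (0.56). The intercalated cell markers summed to 21.5 to 73.8 TPM in GFP-negative and 46.8 to 112 TPM in GFP-positive libraries, and the proximal tubule markers to 0.94 to 13.2 and 3.92 to 16.2 TPM. Their part in the differences between fractions was not tested.

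Adcy6 was higher in GFP-positive cells by a smaller margin. GFP-negative libraries read 13.7 and 21.6 TPM in C1, 22.3 and 23.4 in C11, 20.9 and 19.6 in C43, and 13.4 and 19.9 in C50. GFP-positive libraries read 19.6 and 21 TPM in C1, 32.2 and 26.3 in C11, 27.8 and 23.3 in C43, and 31.9 and 33.8 in C50. The fractions overlapped over all clones and within C1, but not within the other 3, and how many of all genes split so was not counted. Adcy6 rose by 0.46 ± 0.13 (SE) on the log2 scale, from 19.3 ± 3.79 to 27.0 ± 5.41 TPM (SD, n = 8 each; limma, adjusted p = 0.0104). By clone the log2 differences were 0.22, 0.34, 0.32 and 0.96 in C1, C11, C43 and C50, of which C50 alone passed on its own (limma, adjusted p = 0.0082), and the interaction did not pass (limma, adjusted p = 0.486). Without clone C50 the difference fell to 0.29 but passed (limma, adjusted p = 0.0411), and it lay between 0.50 and 0.54 without any other clone. With the 4 clone means as replicates the difference was 0.45 and did not pass (limma, adjusted p = 0.072), and among the libraries with fewer genes detected it was 0.50 with an adjusted p of 0.374 (limma).

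Gnas differed least. GFP-negative libraries ranged from 660 to 802 TPM with a median of 711, and GFP-positive libraries from 555 to 712 TPM with a median of 650. The ranges overlapped. The log2 difference was -0.17 ± 0.06 (SE; limma, adjusted p = 0.0342). This call is fragile, being lost in 21 of 31 alternative analyses, among them median-ratio scaling (-0.09, limma adjusted p = 0.459). The log2 differences by clone were -0.18 (C1), -0.16 (C11), 0.01 (C43) and -0.35 (C50), and without C50 the difference was -0.11 (limma, adjusted p = 0.134). Of the clones tested singly, only C50 passed, with 686 and 763 TPM in the negative and 555 and 581 TPM in the positive libraries (limma, adjusted p = 0.0208).

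Over the 4 clones all 4 members tested were therefore called, 2 in each direction, against a background of 35.3% of all genes (12.1% higher and 23.2% lower). Their median log2 change was 0.15 beside -0.06 for all genes. The share of higher among all calls was 34.2% with the deposited TPM, 51.1% after median-ratio scaling and 50.1% after quantile normalization. Within single clones the members called numbered 1 in C1 (background 7.22%), 1 in C11 (7.94%), 2 in C43 (16.3%) and 4 in C50 (26.6%). In the interaction test, limma called 0 of the 4 members, with 0 at an unadjusted p under 0.05, and called 0.869% of all genes.

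**Figure D2:**
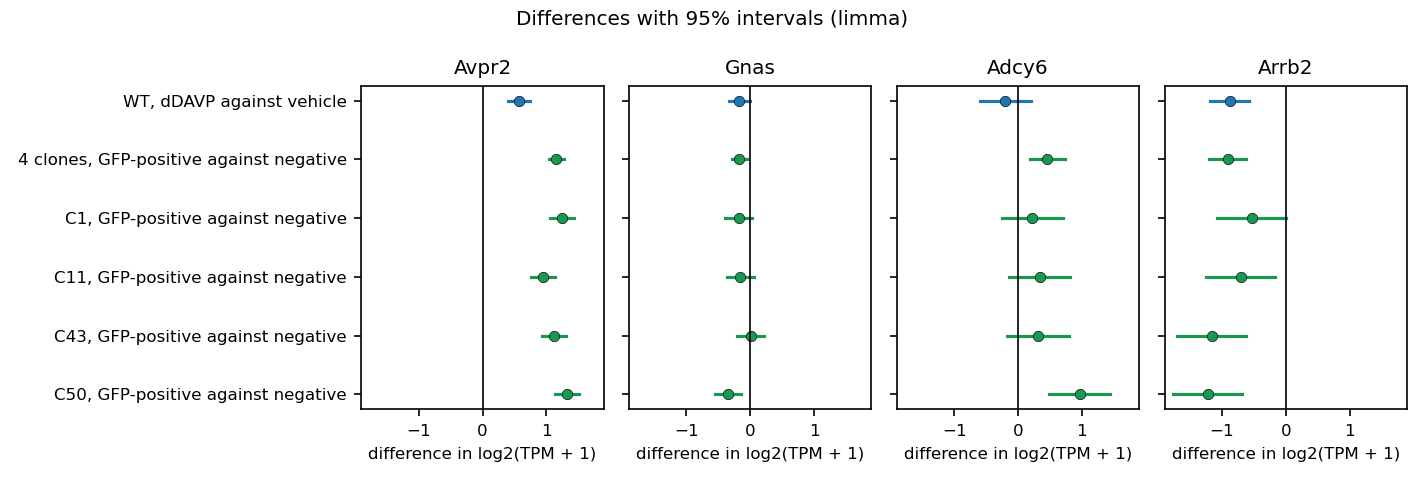
Differences in log2(TPM + 1) with 95% intervals from limma for the 4 tested genes, for dDAVP against vehicle in WT cells, for GFP-positive against GFP-negative cells over the 4 clones and for each clone. Avpr2 lies right of 0 in all 6 comparisons, from 0.57 in WT cells to 1.33 in C50, and Arrb2 lies left of 0, from -0.54 in C1 to -1.23 in C50.

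Ordered by group mean, Avpr2 was highest in C50 GFP-positive cells (381 TPM), followed by the positive cells of C43 (359), C11 (341) and C1 (330), then by WT cells given dDAVP (262). These neighbours did not overlap in their libraries. WT cells without dDAVP (176) came next, level with C11 GFP-negative cells (176), and then the negative cells of C43 (165), C50 (152) and C1 (139). From WT vehicle down to C50 negative each neighbouring pair overlapped, and only C1 negative lay apart from the group above it. The GFP-negative cells, which had received dDAVP, thus read 137 to 179 TPM of Avpr2 beside 172 to 183 TPM in WT cells without it. Compared with WT dDAVP cells, the GFP-negative cells had less Avpr2 (log2 difference -0.73, limma adjusted p = 7.16e-07) and more Arrb2 (0.58, limma adjusted p = 0.0313), with a background of 7.16% of genes called. GFP-positive cells had more Avpr2 than WT dDAVP cells (0.43, limma adjusted p = 7.37e-05) and more Adcy6 (0.48, limma adjusted p = 0.0403), with a background of 16.7%; the Adcy6 call was lost in 17 of 32 alternative analyses. Arrb2 in GFP-positive cells differed from WT dDAVP cells by -0.33 (95% interval -0.66 to -0.01, limma adjusted p = 0.165), and passed without clone C1 (-0.43, limma adjusted p = 0.049). Cell markers moved in both comparisons. In GFP-positive cells 8 of 8 dividing-cell markers were called lower than in WT dDAVP cells (median -0.80), 4 of 10 principal cell markers higher and 2 lower (median 0.38), and 1 of 2 intercalated cell markers higher. In GFP-negative cells 6 of 10 principal cell markers, Avpr2 included, were called lower (median -0.70), 4 of 8 dividing-cell markers higher (median 0.43), and the leukocyte marker Cd68 was higher by 0.61 (limma, adjusted p = 0.0281). Their part in these differences was not tested. Both comparisons use the same 3 WT libraries, and the reporter clone and the sorting cannot be told apart in them. The dose and time of dDAVP are not tied to a library, so they too may differ between WT and reporter cells. The call of Arrb2 in GFP-negative cells was lost in 7 of 32 alternative analyses, with an adjusted p of 0.163 without the second and 0.173 without the third WT dDAVP library, 0.0543 without C1 replicate 2, 0.0659 without C11 replicate 1, 0.0669 without C43 replicate 1, 0.0684 without clone C50 and 0.0877 with no filter (limma).

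The clones were compared within each fraction. Within the GFP-negative cells the highest clone mean of Avpr2 was 1.26 times the lowest (139 to 176 TPM), while that of Aqp2 was 23.4 times the lowest (69.5 to 1624 TPM). Within the GFP-positive cells the spans were 1.16-fold for Avpr2 and 3.45-fold for Aqp2. The clone means of Arrb2 spanned 1.29-fold in negative and 1.70-fold in positive cells, those of Adcy6 1.37-fold and 1.62-fold, and those of Gnas 1.12-fold and 1.18-fold. The negative cells of C43 and C50 held mean Aqp2 levels of 1624 and 1243 TPM beside mean Avpr2 levels of 165 and 152 TPM. The test for differences between clones, averaged over fractions, called 0 of the 4 members (limma, adjusted p = 0.073 for Avpr2, with Avpr2 as the 1 member at an unadjusted p under 0.05), against 31.6% of all genes. Adcy6 passed after quantile normalization (limma, adjusted p = 0.0329). Leaving out either library of C50 GFP-negative cells brought Avpr2 past the threshold (limma, adjusted p = 0.0227 without replicate 1 and 0.0214 without replicate 2).

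**Figure D3:**
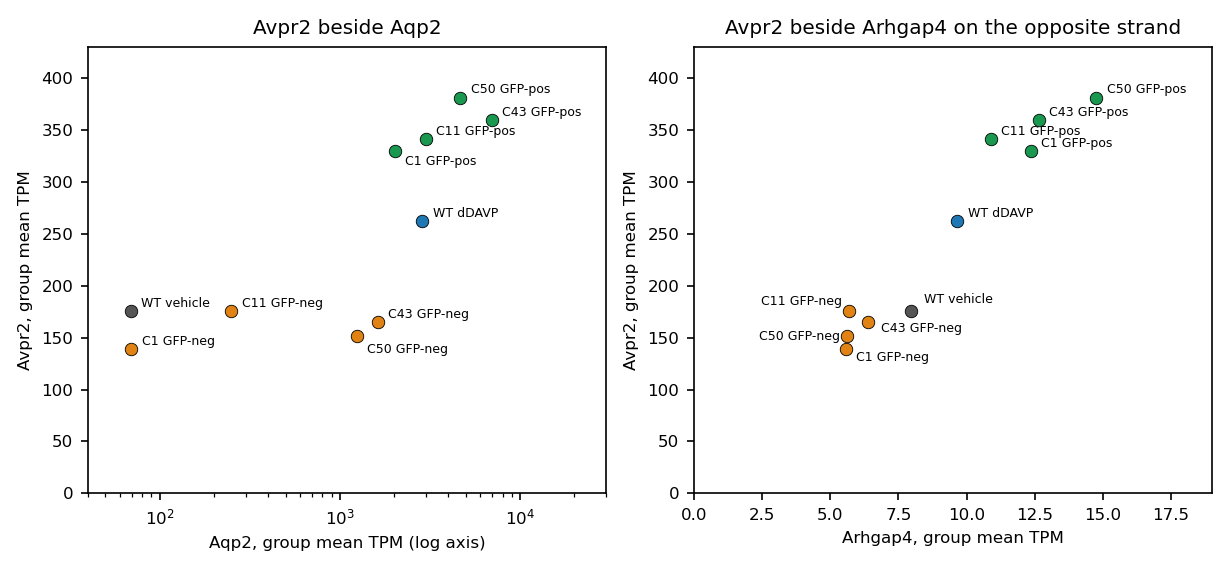
Group mean TPM of Avpr2 (linear axis) beside Aqp2 (left, log axis) and beside Arhgap4, the overlapping gene on the opposite strand (right, linear axis); each point is 1 of the 10 groups. GFP-negative groups lie between 139 and 176 TPM of Avpr2 while their Aqp2 runs from 69.5 to 1624 TPM, and Arhgap4 orders the groups much as Avpr2 does.

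Across the 10 group means, Avpr2 and Aqp2 had a Pearson correlation of 0.769 and a Spearman correlation of 0.818. Arrb2 ran against Aqp2 (Pearson -0.783, Spearman -0.939), as did Gnas (Pearson -0.793, Spearman -0.794), and Adcy6 was weaker (Pearson 0.45, Spearman 0.552). These are descriptions over 10 groups that share clones and treatments. Genes with a mean of at least 5 TPM were ranked by how closely their group means followed Avpr2, with provisional gene names left out. Of the 9598 ranked, the closest were the overlapping gene Arhgap4 (r = 0.967) and the ETS-family transcription factor gene Ehf (0.963). Next came the lysosomal membrane protein gene Dram2 (0.962), the single-stranded DNA-binding protein gene Nabp1 (0.960) and the mitochondrial enzyme gene Hibadh (0.960). Aqp2 ranked 348 in that list. Arrb2, with r = -0.91, ranked 9430, close to its other end.

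Because TPM is per length, receptor, arrestin and G protein levels can be set against each other within a library. The ratio of Avpr2 to Arrb2 TPM was 5.92 ± 0.52 in WT vehicle and 16.8 ± 2.76 in WT dDAVP cells (SD, n = 3 each). In GFP-negative libraries it ran from 5.00 to 9.27, with a mean of 6.70 ± 1.42, and in GFP-positive libraries from 17 to 42.8, with a mean of 29.9 ± 8.36 (SD, n = 8 each). The ranges of the fractions did not overlap. Gnas transcripts outnumbered those of Avpr2 in all groups, by a mean ratio of 4.32 in WT vehicle, 2.58 in WT dDAVP, 4.59 in GFP-negative and 1.82 in GFP-positive libraries.

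Adcy6, an isoform that calcium inhibits, made up nearly all adenylyl cyclase transcripts. Its share of the summed TPM of the 10 cyclase genes Adcy1 to Adcy10 lay between 83.5% and 97.1% in the 22 libraries. The share differed by -1.16 percentage points with dDAVP (exact permutation p = 0.8, where 3 against 3 libraries cannot go below 0.1) and by 2.36 points between GFP-positive and GFP-negative cells (exact permutation within clones, p = 0.238). Arrb2 made up between 93.9% and 100% of the summed beta-arrestin TPM. Its share differed by 0.08 points with dDAVP (exact permutation p = 1) and by -0.86 points between fractions (exact permutation p = 0.332). After adjustment over these 4 two-sided tests the p-values were 1, 0.664, 1 and 0.664.

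Of the 6 weak members, Adcy4, Avpr1a and Adcy7 had lower values in the set of libraries with fewer genes detected. The sets were formed by the count of genes above 0 TPM itself, so more zeros among weak genes are built into that set. How many other weak genes split in the same way was not counted. Adcy4, a cyclase that G beta-gamma subunits can stimulate, was listed at 0 in 10 of the 10 libraries with fewer genes detected and in 1 of the 12 others. Avpr1a, the V1a receptor that couples to Gq and calcium, was listed at 0 in 9 of 10 and in 1 of 12. Adcy7 averaged 0.071 TPM in the set with fewer and 0.518 TPM in the set with more genes detected. Adcy9 (0.54 and 0.532 TPM) and Arrb1 (0.264 and 0.283 TPM), by contrast, had much the same mean in both sets, and Adcy3 averaged 0.395 and 0.624 TPM. Adcy3 shares 1380 of its exonic bases (22.1%) with Cenpo on the opposite strand, which ranged from 16.3 to 41.0 TPM, so its low values cannot be told apart from reads of that gene. A value of 0 in this table is a listing and not a measured absence.

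**Figure D4:**
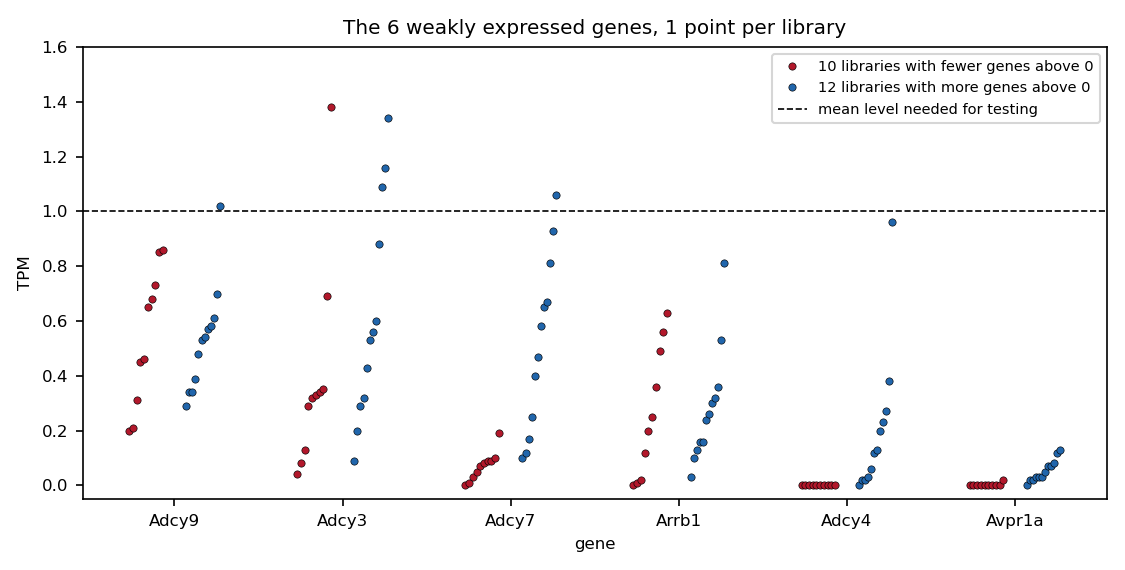
TPM of the 6 weakly expressed genes, 1 point per library, ordered within each column by value, for the 10 libraries with fewer (red) and the 12 with more genes above 0 TPM (blue); the dashed line marks 1 TPM, the mean needed for testing. Adcy4 sits at 0 in all 10 red libraries, while Adcy9 spans similar values in both sets.

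Of 40 other genes of the receptor pathway tested with dDAVP, in 6 lists, 4 were called (10%), close to the 8.88% of all genes. That count was 10 without WT dDAVP replicate 2 and 1 without any other single library. Of 8 other G alpha subunit genes tested, Gna13 rose (0.34, limma adjusted p = 0.044), but the call was lost on leaving out any 1 of the 6 libraries. Of 7 G beta and gamma genes, Gng12 rose from 134 ± 4.54 to 192 ± 0.585 TPM (SD, n = 3 each; 0.51, limma adjusted p = 0.00556). Pdcl3, a phosducin-like chaperone gene, rose among 6 G protein chaperones (0.37, limma adjusted p = 0.03), a call lost on leaving out any library but WT dDAVP replicate 2. Ap2a2, an adaptor subunit of clathrin-coated pits, fell by 0.51 among 13 endocytosis and retromer genes (limma, adjusted p = 0.0473), a call lost under both other scalings and on leaving out any of 5 libraries, all but WT dDAVP replicate 2. Limma called 0 of the 2 receptor kinase genes tested and 0 of 4 genes of the alpha-arrestin family, of which 2 and 1 had an unadjusted p under 0.05. That arrestin-family gene was Txnip, which was lower with dDAVP (-0.31, limma adjusted p = 0.053). Without WT dDAVP replicate 2, 2 of the 2 kinase genes, 1 arrestin-family gene, 3 endocytosis and retromer genes and 1 G alpha gene were called lower (limma). The list medians lay between -0.36 for receptor kinases and 0.09 for G beta and gamma genes, beside -0.16 for all genes.

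Between GFP fractions 16 of the same 40 genes were called (40%), beside 35.3% of all genes, with 9 higher and 7 lower. All 4 of the alpha-arrestin family genes tested were higher in GFP-positive cells: Arrdc3, an adaptor that brings ubiquitin ligases to membrane receptors, by 1.15 (32.3 ± 11.3 to 68.3 ± 14.7 TPM, SD, n = 8 each; limma adjusted p = 0.00231), Txnip, the thioredoxin-binding member that restrains glucose uptake, by 0.88, Arrdc2 by 0.57 and Arrdc1 by 0.32. The 4 remained higher under both other scalings and on leaving out each of the 16 libraries in turn, and the list median was 0.72 beside -0.06 for all genes. Clone by clone, the 4 genes had 1 call in clone C1 (list median 0.49), 1 in clone C11 (0.52), 2 in clone C43 (0.68) and 4 in clone C50 (1.33), and Arrdc2 differed by -0.0082 in C1. Without C50 the 4 were still called, with Arrdc3 at 0.79, Txnip at 0.69, Arrdc2 at 0.34 and Arrdc1 at 0.23, and in the interaction with clone limma called 0 of the 4 (adjusted p from 0.0838 to 0.496), with 2 at an unadjusted p under 0.05. Txnip was the most abundant of them, with 221 to 1037 TPM over all libraries. Among G beta and gamma genes Gng12 (0.61), Gng7 (0.42) and Gnb5 (0.35) rose while Gng10 and Gnb2 fell by 0.53 and 0.37, with the call of Gng7 lost without C11 or C43, and the most abundant gene of that list, Gng5, differed by -0.15 (limma, adjusted p = 0.289). Gna13 rose from 48.5 ± 4.20 to 79.0 ± 16.2 TPM (SD, n = 8 each; 0.67, limma adjusted p = 2.19e-05), 1 of 8 in its list, whose most abundant gene Gnai2, an inhibitory alpha subunit, differed by -0.12 (limma, adjusted p = 0.277). Of the chaperones, Pdcl3 rose by 0.33 while Cct2 and Cct7, subunits of the chaperonin that folds G beta, fell by 0.26 and 0.40, although the fall of Cct2 lost its call under median-ratio scaling. The receptor kinase gene Grk6 fell by 0.50 (61.0 ± 12.5 to 42.0 ± 5.74 TPM, SD, n = 8 each; limma adjusted p = 0.00781), a call lost without C11 (adjusted p = 0.0619) or C43 (adjusted p = 0.0849), and Grk2 differed by -0.20 (limma, adjusted p = 0.208). Of 13 endocytosis and retromer genes, Cltb and Vps29 fell by 0.21 and 0.44, the former losing its call under both other scalings and without C1 or C43, and Ap2m1, the most abundant, differed by 0.09 (limma, adjusted p = 0.195).

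**Figure D5:**
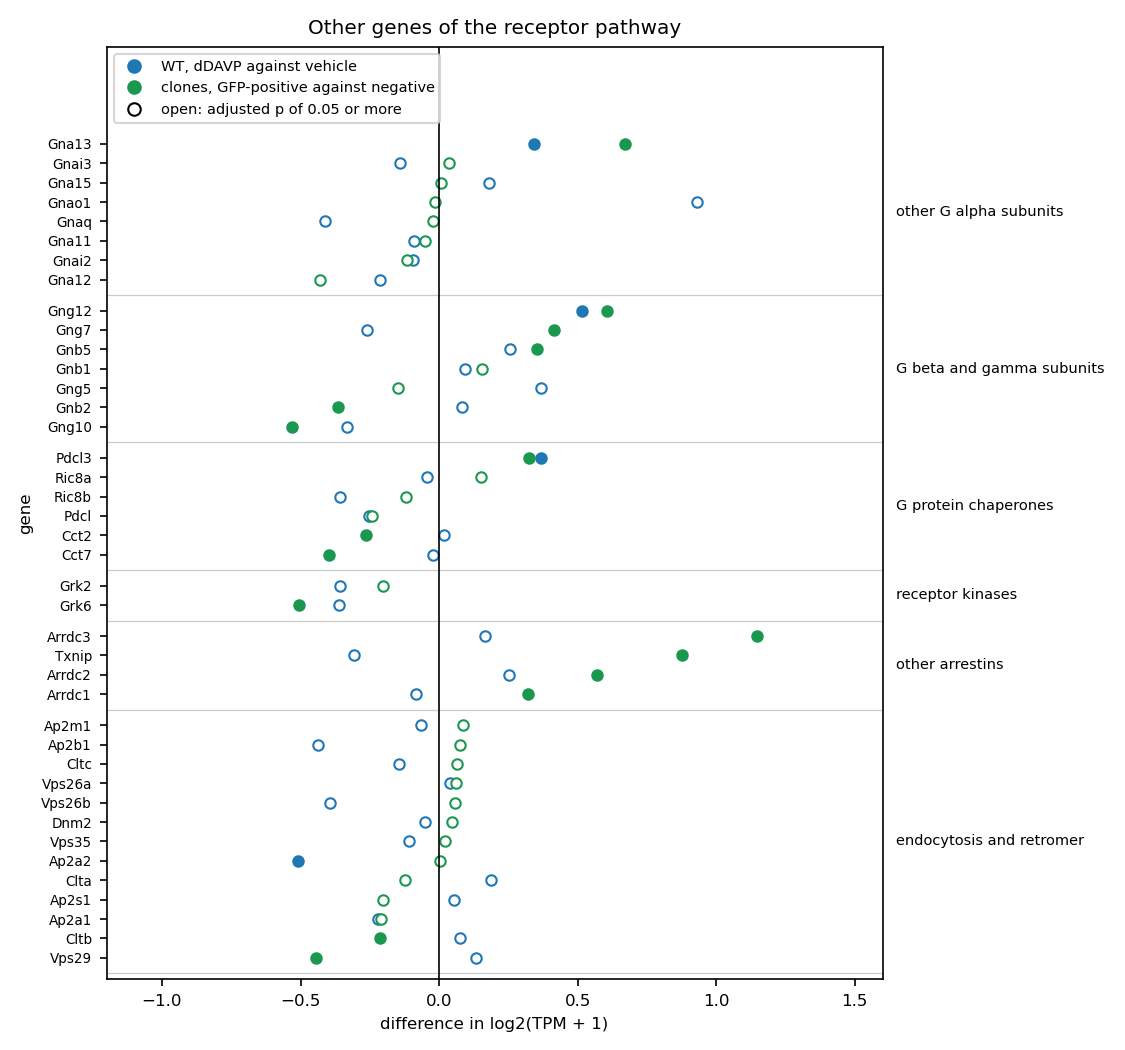
Differences in log2(TPM + 1) of the other pathway genes tested, for dDAVP against vehicle in WT cells (blue) and GFP-positive against GFP-negative clone cells (green); filled points had a limma adjusted p under 0.05. All 4 genes listed as other arrestins are filled and right of 0 between fractions, up to 1.15 for Arrdc3, and none of them is filled for dDAVP.

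The remaining lists held little to test. The other 5 adenylyl cyclase genes summed to at most 1.82 TPM in any library and none reached the mean of 1 TPM. Cap1, a cyclase-associated and actin-binding protein gene at 47.6 to 97.7 TPM, differed by -0.06 with dDAVP (limma, adjusted p = 0.782) and by 0.15 between fractions (limma, adjusted p = 0.346). Lnpep, the gene of a vasopressin-cleaving aminopeptidase, was the 1 gene tested of the 3 listed with the receptors, and differed by -0.41 with dDAVP (limma, adjusted p = 0.261) and by 0.35 between fractions (limma, adjusted p = 0.157).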

How the data were processed

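The authors deposited TPM per gene and library for the 22 libraries, in a table of 55415 lines. STAR and RSEM are named in the submitters' processing notes, and their versions, the genome build and the annotation are not given in the sources used here. Libraries were made with the SMART-Seq HT and Nextera XT kits and sequenced as paired ends of 50 bases, per the labels' protocols. The table also holds ratios of group means by the authors, which were not used for any value here. Groups and replicate numbers were read from the labels. The 980 lines that share 1 of 79 symbols were summed, which left 54514 entries; 0 pairs of libraries were identical.

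Tests used limma 3.58.1 in R 4.3.3 on log2(TPM + 1), a pseudocount of 1 that understates changes of low genes. Genes with a mean of at least 1 TPM over the libraries compared were tested together with a mean-variance trend, two-sided, and adjusted by the Benjamini-Hochberg method over all of them. Changes with an adjusted p under 0.05 are called. WT dDAVP was compared with WT vehicle over 6 libraries, and GFP fractions over 16 libraries with clone as a covariate; single clones, the interaction and the comparison with WT cells used models with a mean per group. Shares were compared with exact permutation tests. On simulated data made from the real means and spreads the procedure was tested for recovery of known changes. The simulated noise was independent between genes and libraries, without the clone differences or detection sets of the real data. It therefore does not show how calls behave with those. The sequencing depth cannot be read from TPM, so precision is given by the spread between libraries alone.

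The 10 members and the lists of other pathway genes and markers were chosen with earlier results of these data known. The text names all members, the called genes and the most abundant gene of each pathway list. It also names the 5 genes with group means most like Avpr2, provisional gene names left out. Replicate numbers were checked for pairing and same-numbered libraries showed little shared deviation, so no block entered the main analysis. With so few libraries that check cannot settle whether they were handled together, and fits with a block are given at the end. Promoter windows are from RefSeq (GRCm38.p6) and gene overlaps from GENCODE M21; the build of the deposited table is not known, and coordinates were used only for these descriptions. Other pseudocounts, filters, scalings, sets of libraries and clones were tried.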

Additional observations from a re-analysis of the deposited data

Results flagged for a closer look

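The GFP difference of Aqp2, used here only as a reference for the receptor genes, varied between the clones. The test of that variation, an interaction of fraction with clone, had an adjusted p of 2.15e-06 (limma, 16 libraries). Within each of the 4 clones both GFP-positive libraries had more Aqp2 than both GFP-negative ones. The ratio of group means was largest in C1 and smallest in C50. For Avpr2, Gnas, Adcy6 and Arrb2 the same interaction test did not pass, with adjusted p-values from 0.388 to 0.533 (limma).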

How the results depend on the processing

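The rise of Avpr2 between GFP fractions kept its direction and its call in all 31 alternatives (1.1 to 1.24), that of Adcy6 lost its call in 2 and the fall of Arrb2 in 1, the libraries with fewer genes detected (-1.02, adjusted p = 0.0536). There 250 genes and 1 member were called, and 2642 genes and 2 members with clone means as replicates, against 4626 and 4. With dDAVP, 1198 genes were called, and 442 with no filter, 691 with no trend, 2694 with detected genes as a covariate and 101 with 0 members within the libraries with more genes detected, where fewer samples were compared. The difference of Gnas reversed to 4.4e-05 under median-ratio scaling (0.0066 for GFP-positive cells against WT) and that of Adcy6 to 0.028 under quantile normalization.

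Same-numbered libraries did not deviate together (correlations of -0.21 to 0.20), so they share only a number. With a replicate block 122 genes and 0 members were called for dDAVP (adjusted p = 0.0653 for Avpr2 and 0.0612 for Arrb2), and 4259 genes and 3 members between fractions.

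Leaving out 1 library at a time gave 314 to 2038 genes and 1 to 2 members for dDAVP (2038 without WT dDAVP replicate 2, and 314 to 460 without each of the other 5), and 4170 to 6043 genes and 3 to 4 members for the fractions. It gave 42 to 5038 genes for the interaction, where 114 were called (5038 and 328 without C50 GFP-negative replicates 2 and 1, 75 or fewer without any of 11 others), and 2857 to 7947 with 0 to 1 members between clones (7947 without C50 GFP-negative replicate 2). Against WT dDAVP cells, it gave 386 to 2408 genes with 1 to 2 members for GFP-negative cells (948 in all; 386 and 604 without WT dDAVP replicates 2 and 3, 1697 and 2408 without C50 GFP-negative replicates 1 and 2). For GFP-positive cells it gave 1315 to 3360 genes with 1 to 2 members (2213 in all; 1315 without WT dDAVP replicate 3, 3349 and 3360 without the same C50 libraries). Adcy6 in GFP-negative against WT cells, 0.02, ran from -0.10 to 0.16, and was -0.063 without C11 and -0.0070 without C43. The dDAVP difference of the Adcy6 share ran from -4.39 to 0.55 points and that of the Arrb2 share from -0.53 to 0.41, and between fractions they ran from 0.75 to 3.98 and from -1.51 to -0.22 points.

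Quantile normalization called 237 genes for the interaction and 1 member between clones. With no filter, 615 genes and 1 member were called for GFP-negative and 1 member for GFP-positive cells against WT. Members called were 1 for GFP-positive cells without C11, C43 or C50 and 3 without C1, and 1 for GFP-negative cells without C50. The cause of these changes was not tested. The log2 ratio of Arrb2 to Arrb1 was not run, since Arrb1 is listed at 0 in 1 library. Depth is unknown, so low members cannot be called absent. The counts of other pathway genes without each library or clone and under other scalings were added after seeing the data: with dDAVP 0 other G alpha genes rose without any 1 library, and 1 to 2 G beta and gamma genes rose, while 0 to 2 receptor kinase, 0 to 3 endocytosis, 0 to 1 arrestin-family and 0 to 1 G alpha genes fell. Between fractions 16 to 21 of the 40 were called (21 without C50 GFP-negative replicate 1), and 13 to 21 without 1 clone.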
